A study of Mus musculus with 14 samples.

Results

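The microRNAs (miRNAs) described here are 8 mature products of the miR-99, miR-100 and miR-125 families and of a let-7 gene beside them, chosen by name: miR-99a-5p, miR-99b-5p, miR-99b-3p, miR-100-5p, miR-125a-5p, miR-125a-3p, miR-125b-5p and let-7e-3p. They are 8 of 999 mature miRNA names in the count tables of small RNA sequenced from the mouse epididymis, and all 8 were listed in both tables. The samples came from adult male Swiss mice aged 8 weeks, with no treatment or genotype difference, so the comparisons are between the regions of the duct and between tissue preparations. Whole tissue was represented by 3 caput, 2 corpus and 3 cauda libraries and epithelial cells isolated from the same regions by 2 libraries each, 14 libraries in all, and tissue or cells of several mice were pooled for each.

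The epididymis is the duct in which spermatozoa mature on their way from the caput through the corpus to the cauda, where they are stored. A mature miRNA guides the Argonaute protein to messenger RNAs that pair with its seed, the bases near its 5′ end, so that miRNAs with the same seed share many predicted targets. Each hairpin precursor can give a product from its 5′ arm (5p) and one from its 3′ arm (3p), of which one usually dominates. The miR-99 and miR-100 family is known for restraining mTOR and insulin-like growth factor receptor signalling. The miR-125 family is related to lin-4 of nematodes and, like let-7, is known for its part in developmental timing. In mammals these families lie together with a let-7 gene in paralogous clusters.

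The sequences of the 5p products and of the 3p members are given because the comparison turns on which products share a seed. They are RefSeq sequences on GRCm38.p6, 5′ to 3′, with the seed (bases 2 to 8) in capitals.
miR-99b-5p: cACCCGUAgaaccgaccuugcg
miR-99a-5p: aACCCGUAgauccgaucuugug
miR-100-5p: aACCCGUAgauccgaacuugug
miR-125a-5p: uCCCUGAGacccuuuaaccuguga
miR-125b-5p: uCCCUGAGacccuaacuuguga
let-7e-5p: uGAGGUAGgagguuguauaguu
miR-99b-3p: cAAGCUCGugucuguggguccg
miR-125a-3p: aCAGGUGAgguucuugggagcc
let-7e-3p: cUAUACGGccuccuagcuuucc

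Among 1679 mature miRNAs of the sequence table, the seed of miR-99b-5p was carried by 3, which are miR-99a-5p, miR-99b-5p and miR-100-5p. The seed of miR-125a-5p was carried by 5, namely miR-125a-5p, miR-125b-5p, miR-351-5p, miR-6367 and miR-6394. The closest pair was miR-100-5p and miR-99a-5p, which differed by the single substitution A16U, counted from the 5′ end of miR-100-5p. From miR-99a-5p to miR-99b-5p there were 4 substitutions (A1C, U11A, U16C and U21C). The 24-nt miR-125a-5p and the 22-nt miR-125b-5p were identical over their first 13 bases and 3 edits apart in all. Every count of the 8 members lay within 0.001 of a whole number, so no fractional share of a read was visible among them. How reads that match several miRNAs were assigned is not stated, and the split between miR-99a-5p and miR-100-5p carries that uncertainty.

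The miR-99b locus lies on the plus strand of chromosome 17 inside Spaca6, with Mir99b at chr17:17830188-17830257 and Mirlet7e at chr17:17830352-17830444, both in an intron, and Mir125a at chr17:17830812-17830879, which overlaps an annotated Spaca6 exon. The 3 hairpins fall within 0.692 kb. The first paralogous locus lies in introns of the non-coding gene Mir99ahg on chromosome 16, with Mir99a at chr16:77598936-77599000, Mirlet7c-1 at chr16:77599657-77599750 and Mir125b-2 at chr16:77646273-77646343, over 47.4 kb. Mir99a and Mirlet7c-1 also lie in an intron of the protein-coding Gm11146 on the minus strand, and Mir125b-2 overlaps an exon of C130023A14Rik. The other paralogous locus lies in introns of the non-coding gene 3110039I08Rik on chromosome 9, with Mir100 at chr9:41531425-41531504, Mirlet7a-2 at chr9:41536716-41536811 and Mir125b-1 at chr9:41581926-41582002, over 50.6 kb. All of them also lie in introns of the non-coding Gm49317, Mir100 overlaps an exon of Gm48742 on the minus strand, and Mir125b-1 overlaps an exon of Gm28119. All 9 hairpins are on the plus strand. miR-125b-5p has the same sequence at both paralogous loci, so its counts could not be assigned to either, and let-7c-5p and let-7a-5p also arise from other loci.

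**Figure D1:**
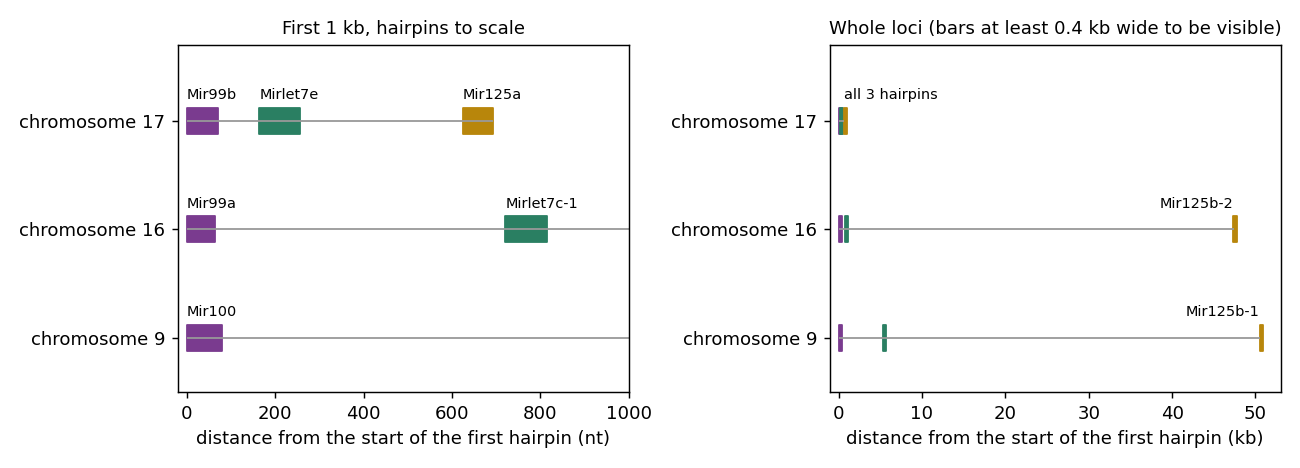
Hairpins of the miR-99b locus (chromosome 17) and of the paralogous loci on chromosomes 16 and 9, by distance from the start of the first hairpin, in nt over the first 1 kb (left) and in kb over the whole loci (right). The chromosome 17 hairpins fall within 0.692 kb, whereas Mir125b-2 and Mir125b-1 lie over 47 kb from the first hairpin of their loci.

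Whole tissue libraries held 1243398 to 2135501 counts and epithelial libraries 89039 to 362867, so 3p members with a handful of counts in epithelial cells are known less precisely. Levels are given as CPM, the count a miRNA would have in a library of standard size, after TMM factors had corrected for differences in library composition. A miRNA entered a comparison of regions when its mean count was above 10 in either region. It was called when its adjusted p (limma-voom, Benjamini-Hochberg over all miRNAs tested) was below 0.05 and its change was at least 2-fold, and "rose" and "fell" are used only of such calls. All 8 members had mean counts above 10 in every region of whole tissue. In epithelial cells 6 did so in some region and 5 in every region. The libraries of a region are described by the study both as biological and as technical replicates. If they are technical, the p-values measure only the spread between such libraries and are too small for the spread between mice.

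The labels of the preparations were set beside markers of cell types. The 7 epithelial miRNAs (the miR-200 family, miR-205-5p and miR-203-3p) summed to 8227 to 23779 CPM in whole tissue and 26223 to 41367 CPM in epithelial cells. The 4 smooth muscle miRNAs (the arms of miR-143 and miR-145a) were not lower in epithelial cells, with 144526 to 336801 CPM against 53228 to 249092 CPM in whole tissue. None of the markers listed in either table was at 0 in every library.

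miR-99b-5p was the most abundant member in all 14 libraries. In whole tissue caput its mean was 18992 ± 3042 CPM (SD, n = 3), and it ranked between 11 and 13 of 900 miRNAs. It was followed by miR-125a-5p at 4982 ± 635, miR-125b-5p at 4341 ± 277, miR-100-5p at 3367 ± 510 and miR-99a-5p at 1016 ± 166 CPM. The ranges of miR-125a-5p and miR-125b-5p overlapped, whereas those of the other neighbours in this order did not. The 3p members were rare, with 42.2 ± 8.45 CPM for miR-125a-3p, 23.3 ± 3.61 for miR-99b-3p and 22.2 ± 4.90 for let-7e-3p, and the latter pair overlapped. In the cauda the order of the 5p members was different: miR-99b-5p at 5655 ± 593, miR-125b-5p at 4531 ± 353, miR-100-5p at 2561 ± 219, miR-125a-5p at 1883 ± 210 and miR-99a-5p at 1264 ± 165 CPM (SD, n = 3), with no overlap between neighbours. By these whole tissue means, miR-125a-5p was next to miR-99b-5p in the caput and below miR-125b-5p and miR-100-5p in the cauda. In caput replicate 1 it was slightly below miR-125b-5p (ratio 0.957), and in both epithelial caput libraries it was well below (0.356 and 0.269).

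**Figure D2:**
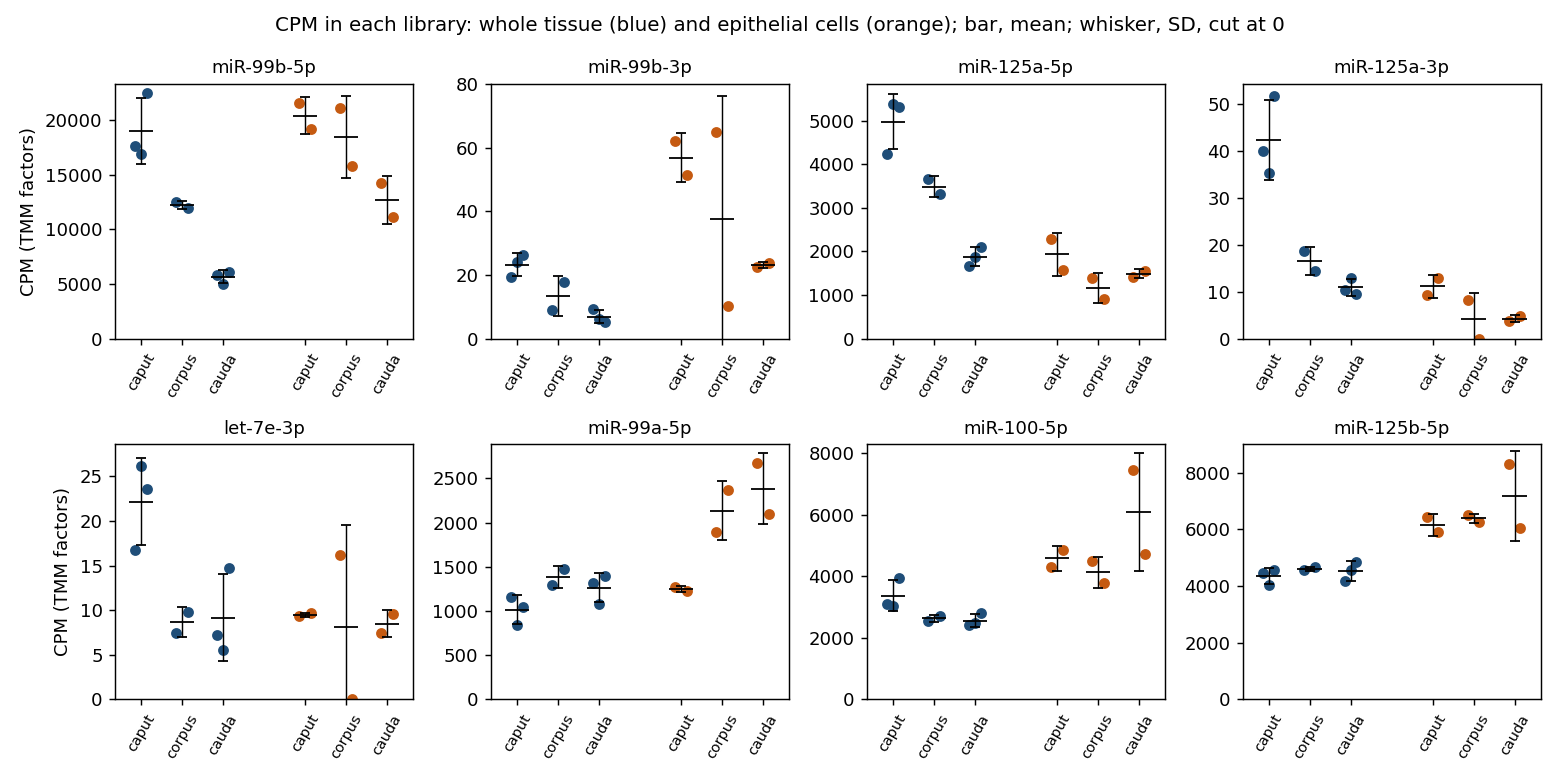
CPM of the 8 members in each library (points) by region, for whole tissue (blue) and epithelial cells (orange), with the mean (bar) and SD (whisker, cut at 0) of each group and a separate linear axis for each member. In whole tissue the 5 members of the chromosome 17 locus lie lower in every cauda library than in every caput library, while miR-125b-5p lies between 4027 and 4862 CPM throughout.

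In whole tissue, all 5 members from the chromosome 17 locus fell from caput to cauda and none of the 3 members from the paralogous loci did. let-7e-5p, the more abundant arm of the let-7e hairpin, is not among the members and was not called (log2 -0.92). miR-99b-5p, the main product of the locus, was at 17598, 16896 and 22481 CPM in the caput libraries. It was at 12477 and 11977 CPM in those of the corpus, and the cauda libraries had 5866, 4985 and 6113 CPM. The caput, corpus and cauda libraries did not overlap. The fall from caput to cauda was 3.35-fold (log2 change -1.74 ± 0.12, SE, limma adjusted p = 5.6e-07). miR-125a-5p, the miR-125 product of the locus, was at 4250, 5379 and 5318 CPM in the caput libraries, at 3656 and 3318 CPM in those of the corpus, and the cauda libraries had 1674, 1882 and 2093 CPM. These groups did not overlap either, and its fall was 2.64-fold (log2 -1.40 ± 0.12, limma adjusted p = 2.1e-06). 

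The rarer arms of the locus followed. miR-125a-3p had 62, 51 and 94 counts in the caput and 20, 21 and 16 in the cauda, a 3.85-fold fall (log2 -1.94 ± 0.24, limma adjusted p = 4.3e-05). miR-99b-3p had 30, 35 and 48 counts in the caput and 18, 10 and 9 in the cauda, a 3.30-fold fall (log2 -1.72 ± 0.33, limma adjusted p = 0.00077). let-7e-3p had 26, 38 and 43 counts in the caput and 14, 9 and 25 in the cauda, a 2.55-fold fall (log2 -1.35 ± 0.34, limma adjusted p = 0.0043). As CPM, its cauda libraries lay at 7.21, 5.54 and 14.7 and its caput libraries at 16.7, 26.2 and 23.6. By the DESeq2 Wald test let-7e-3p was not called (adjusted p = 0.055). The other 4 were called by each of the tests that covered them.

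The members' 5 calls of 8, all lower, stood beside 189 calls among 355 miRNAs tested from caput to cauda (53.2%), of which the calls lower were 25.4% of the miRNAs tested. The median log2 change was -1.38 over the 8 members and -0.05 over all miRNAs tested. Scaling by library totals moved the median of all miRNAs to 0.30 and the calls from 99 higher and 90 lower to 115 higher and 65 lower. The 5 members of the chromosome 17 locus were still called lower under that scaling, with log2 changes between -1.60 and -1.0. The 3 members from the paralogous loci kept their signs.

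Markers of cell types moved over the same libraries. From caput to cauda of whole tissue the sum of the 7 epithelial miRNAs went from 21952 to 23779 CPM down to 8227 to 9979 CPM. The sum of the 4 smooth muscle miRNAs went from 53228 to 65976 CPM up to 223163 to 249092 CPM. The 6 fibroblast miRNAs went from 2107 to 2413 up to 3755 to 4341 CPM, the 5 leukocyte miRNAs from 966 to 1160 up to 1948 to 1993 CPM and the 5 red blood cell miRNAs from 151 to 165 up to 1587 to 2526 CPM. The 9 germ cell miRNAs went from 4041 to 5275 up to 9480 to 12176 CPM, and the endothelial pair overlapped at 14776 to 18250 and 16398 to 17319 CPM. The part of these shifts in the members' changes was not tested. In such bulk samples, fewer cells of a type and less RNA per cell cannot be told apart.

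The members from the paralogous loci stayed within 2-fold. miR-125b-5p, from chromosomes 9 and 16, was at 4443, 4027 and 4552 CPM in whole tissue caput, the corpus libraries had 4563 and 4656 CPM, and those of the cauda 4160, 4572 and 4862 CPM. The caput and cauda overlapped, and the log2 change was 0.06 ± 0.09 (limma adjusted p = 0.54). miR-99a-5p, from chromosome 16, was at 1162, 835 and 1049 CPM in the caput and 1321, 1079 and 1393 in the cauda, with a log2 change of 0.32 ± 0.14 (limma adjusted p = 0.054). miR-100-5p, from chromosome 9, was at 3101, 3046 and 3954 CPM in the caput and 2405, 2467 and 2811 in the cauda. Its caput libraries were all above its cauda libraries, and the log2 change of -0.39 ± 0.11 had a limma adjusted p of 0.0092 but was below the 2-fold limit. With library totals these log2 changes were 0.41 (limma adjusted p = 0.0019) for miR-125b-5p, 0.67 (0.0018) for miR-99a-5p and -0.04 (0.75) for miR-100-5p.

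The other mature products of the loci number 9, of which 7 were tested in whole tissue and 0 were called from caput to cauda, beside the 53.2% called among all miRNAs. At an adjusted p below 0.05 without the fold limit there were 3 of these 7. let-7e-5p, the let-7 product of the chromosome 17 locus, was at 1198, 1380 and 1194 CPM in the caput and 711, 701 and 577 in the cauda. The groups did not overlap, but the log2 change of -0.92 ± 0.12 (limma adjusted p = 4.9e-05) was just short of 2-fold. let-7c-5p changed by a similar log2 value of -0.78 ± 0.08 (limma adjusted p = 8.3e-06), also under 2-fold. The 3p products of the miR-125b hairpins had log2 changes of -0.13 ± 0.10 (miR-125b-2-3p, limma adjusted p = 0.24) and -0.39 ± 0.14 (miR-125b-1-3p, limma adjusted p = 0.026). For miR-99a-3p, let-7c-1-3p and let-7a-5p they were -0.16 ± 0.17, 0.61 ± 0.31 and 0.13 ± 0.10, with limma adjusted p of 0.38, 0.090 and 0.25. miR-100-3p and let-7a-2-3p had at most 3 counts in any library and were not tested.

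Between neighbouring regions, which share libraries with the comparison of caput and cauda, fewer members were called. From caput to corpus of whole tissue 2 of 8 members fell, beside 100 calls among 334 miRNAs (29.9%, with calls lower at 15.9%). They were miR-125a-3p (log2 -1.35 ± 0.26, limma adjusted p = 0.0017) and let-7e-3p (log2 -1.30 ± 0.42, limma adjusted p = 0.023), with 25 and 22 counts and 10 and 15 counts in the corpus libraries. The call of let-7e-3p was lost without caput replicate 2 (adjusted p = 0.069), caput replicate 3 (0.065), corpus replicate 1 (0.11) or corpus replicate 2 (0.11), and also with library totals (log2 -0.97, adjusted p = 0.062) and by the DESeq2 Wald test (adjusted p = 0.092). miR-99b-5p and miR-125a-5p were lower in the corpus by 0.63 and 0.51 on the log2 scale (limma adjusted p = 0.0026 and 0.0075), under the 2-fold limit. From corpus to cauda 1 member, miR-99b-5p, fell (log2 -1.12 ± 0.13, limma adjusted p = 8.5e-05), beside 93 calls among 341 miRNAs (27.3%, with calls lower at 12.9%). miR-125a-5p had a log2 change of -0.89 ± 0.13 (limma adjusted p = 0.00031), again under 2-fold. In the fit without corpus replicate 1, which leaves 1 corpus library, the log2 change of miR-99b-3p was -1.32. Of the 7 other products of the loci tested, only miR-125b-1-3p of the chromosome 9 locus was called from caput to corpus. It was lower in the corpus (log2 -1.07 ± 0.17, limma adjusted p = 0.00054). From corpus to cauda 0 of 7 were called, and the log2 change of miR-125b-1-3p was 0.68 ± 0.17 (limma adjusted p = 0.0087), under 2-fold.

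In epithelial cells no member was called between any pair of regions. The tests covered 6 members from caput to corpus, 5 from corpus to cauda and 6 from caput to cauda, and over all miRNAs 25 of 205 (12.2%), 21 of 192 (10.9%) and 56 of 216 (25.9%) were called. At an unadjusted p under 0.05 the numbers over all miRNAs were 71, 58 and 109. The calls over all miRNAs moved in both directions when 1 library was left out. Such a fit leaves 1 library in a region and less to estimate the spread from, so a fall need not mean that the calls rested on that library. Some of the falls follow. From caput to corpus they were 10 without caput replicate 2, 13 without corpus replicate 1 and 16 without caput replicate 1. From corpus to cauda they were 4 without corpus replicate 1 and 8 without caput replicate 2 or corpus replicate 2, and from caput to cauda they were 26 without caput replicate 2. By edgeR's quasi-likelihood test and by DESeq2 no member was called either. miR-99b-5p was at 21599 and 19212 CPM in the caput, while the corpus libraries had 21121 and 15840 CPM and those of the cauda 14280 and 11138 CPM. The cauda libraries lay below the caput libraries, with a log2 change of -0.69 ± 0.20 (limma adjusted p = 0.030), under the 2-fold limit. miR-125a-5p was at 2287 and 1582 CPM in the caput and 1415 and 1557 in the cauda, a log2 change of -0.36 ± 0.24 (limma adjusted p = 0.27). Without 1 library that of miR-125a-5p ranged from -0.59 to -0.03 (the latter without caput replicate 1) and that of miR-99b-5p from -0.81 to -0.52 (adjusted p up to 0.17).

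miR-99a-5p lay higher in the epithelial cauda, at 2670 and 2102 CPM against 1276 and 1221 in the caput. Its log2 change was 0.93 ± 0.19 (limma adjusted p = 0.0087), just under 2-fold. It was called with library totals (log2 1.12, limma adjusted p = 0.0041). Without epithelial caput replicate 1 its log2 change was 1.02 and without epithelial cauda replicate 2 it was 1.09. Each of these fits leaves 1 library in a compared region and takes the spread from the other regions. miR-100-5p was at 4294 and 4868 CPM in the caput and 7447 and 4728 in the cauda, and these groups overlapped (log2 0.38 ± 0.23, limma adjusted p = 0.22). miR-125b-5p was at 6423 and 5886 CPM in the caput and 8296 and 6061 in the cauda, which also overlapped (log2 0.21 ± 0.18, limma adjusted p = 0.39). miR-99b-3p had 20 and 16 counts in the caput and 6 and 5 in the cauda (log2 -1.21 ± 0.58, limma adjusted p = 0.13). It was called without epithelial corpus replicate 2 (log2 -1.18, adjusted p = 0.048). miR-125a-3p and let-7e-3p had at most 4 counts in any epithelial library and were not tested there.

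Of the 5 other products tested in epithelial cells from caput to cauda, let-7e-5p and let-7c-5p fell. let-7e-5p was at 1830 and 1656 CPM in the caput and 871 and 716 in the cauda (log2 -1.13 ± 0.18, limma adjusted p = 0.0026). let-7c-5p was at 49121 and 43080 CPM in the caput and 19126 and 18219 in the cauda (log2 -1.30 ± 0.15, limma adjusted p = 0.00087). Over these libraries the sum of the epithelial markers was 26223 to 28799 CPM in the caput and 33869 to 41367 CPM in the cauda, and that of the smooth muscle markers overlapped at 144526 to 195706 and 158218 to 336801 CPM. Fibroblast, endothelial, leukocyte and red blood cell markers were higher in the cauda in both libraries, by 1.87-, 1.69-, 2.22- and 5.33-fold in their mean sums, and germ cell markers overlapped. Their part in the values above was not tested.

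**Figure D3:**
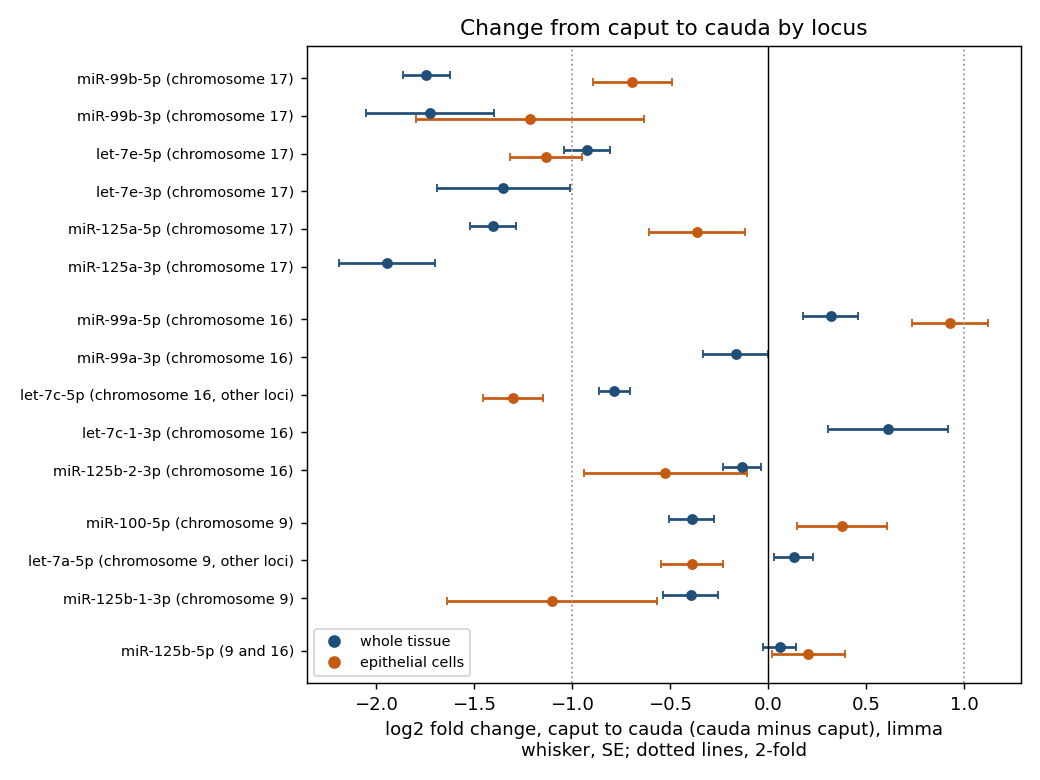
Log2 fold change from caput to cauda (limma, with SE) of the members and the other tested products, grouped by chromosome, for whole tissue (blue) and epithelial cells (orange), with 2-fold limits dotted. In whole tissue the 6 products of the chromosome 17 locus lie between -0.92 and -1.94, and the products named for the paralogous loci lie between -0.78 and 0.61.

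The change from caput to cauda was then compared between the preparations over the 194 miRNAs tested in both. Here a miRNA was counted as differing at an adjusted p below 0.05, with no limit on the fold. By this rule 1 of 6 members differed, beside 32 of all 194 (16.5%), 15 higher and 17 lower. Without 1 library the number over all miRNAs ranged from 27 to 68. It was 50 without whole tissue corpus replicate 1, 53 without whole tissue cauda replicate 3 or epithelial corpus replicate 1 and 68 (58 higher and 10 lower) without epithelial cauda replicate 2. For miR-99b-5p the log2 change in epithelial cells minus that in whole tissue was 0.74 ± 0.24 (limma adjusted p = 0.046). For miR-125a-5p it was 0.72 ± 0.24 (limma adjusted p = 0.051), and for the other 4 members between -0.16 and 0.46. miR-125a-5p passed this rule with the replicate block (0.71, adjusted p = 0.038), by edgeR's quasi-likelihood test (0.73, adjusted p = 0.041), with DESeq2 size factors (0.84, adjusted p = 0.013) and with library totals (0.90, adjusted p = 0.015). miR-100-5p passed with library totals (0.66, adjusted p = 0.030), without whole tissue cauda replicate 3 (0.85, adjusted p = 0.039) and without epithelial cauda replicate 2 (1.18, adjusted p = 0.0018). In the last of these fits miR-99a-5p (0.86, adjusted p = 0.027) and miR-125b-5p (0.46, adjusted p = 0.042) passed as well. The separate fits had given miR-99b-5p changes of -0.69 and -1.74, and the joint fit used TMM factors of its own. The adjusted p of miR-99b-5p was above 0.05 without whole tissue corpus replicate 2 (0.67, adjusted p = 0.091) and without epithelial corpus replicate 2 (0.74, adjusted p = 0.061), and when every miRNA with at least 1 count was tested (0.74, adjusted p = 0.092). Across the fits without 1 library the value ranged from 0.67 to 1.31. Such fits also moved the median over all 194 miRNAs from 0.01 to between -0.06 and 0.45, and miR-125a-5p had an adjusted p below 0.05 in 11 of 14 of them. With DESeq2 size factors the median was 0.12 and with library totals 0.20. let-7c-5p and let-7a-5p differed in the other direction, by -0.83 ± 0.14 (limma adjusted p = 0.00067) and -0.83 ± 0.17 (0.0026). The separate fits gave a difference of -0.52 for each. Without 1 library let-7c-5p ranged from -0.90 to -0.40, with an adjusted p of at most 0.043, and let-7a-5p from -0.90 to -0.43. The adjusted p of let-7a-5p was above 0.05 without whole tissue cauda replicate 1 (0.053), epithelial caput replicate 1 (0.073) or epithelial cauda replicate 2 (0.083).

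Ratios within a library do not depend on the scaling between libraries, and they compared the chromosome 17 products with their paralogs directly. In whole tissue miR-99b-5p made up 80.5 to 81.8% of the miR-99 and miR-100 5p counts of the caput. Its share of these counts was 74.1 to 76.4% for the corpus and 58.4 to 61.2% for the cauda. In epithelial cells the shares were 75.9 to 79.5%, 72.0 to 76.8% and 58.5 to 62%. The cauda stood apart from the other regions in both preparations, with nearly the same shares. miR-125a-5p made up 48.9 to 57.2% of the miR-125 5p counts of whole tissue caput, 41.6 to 44.5% of those of the corpus and 28.7 to 30.1% of those of the cauda. In epithelial cells it made up 21.2 to 26.3%, 12.8 to 17.7% and 14.6 to 20.4%. The epithelial shares were thus all below those of whole tissue, and corpus and cauda overlapped in epithelial cells.

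**Figure D4:**
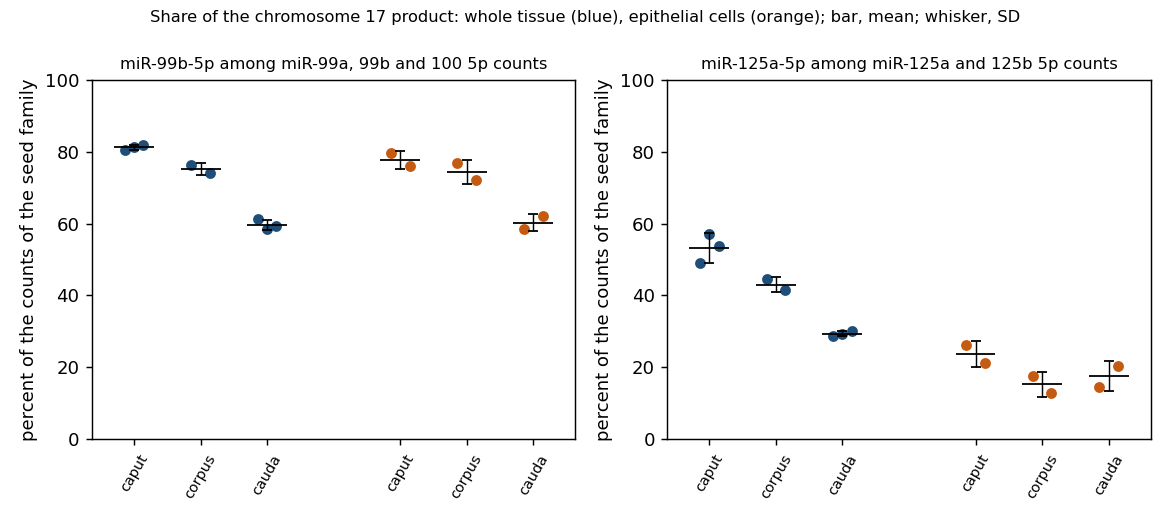
Share of miR-99b-5p in the counts of miR-99a-5p, miR-99b-5p and miR-100-5p (left) and of miR-125a-5p in the counts of miR-125a-5p and miR-125b-5p (right), in percent, for each library (points) with mean (bar) and SD (whisker). The share of miR-99b-5p is 58.4 to 62% in the cauda of either preparation, while the share of miR-125a-5p is 28.7% or more in whole tissue and at most 26.3% in epithelial cells.

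The ratio of miR-99b-5p to miR-99a-5p was 15.1, 20.2 and 21.4 in the caput and 4.44, 4.62 and 4.39 in the cauda of whole tissue. In epithelial cells it was 16.9 and 15.7 in the caput and 5.35 and 5.30 in the cauda. The mean log2 change over both preparations was -1.84 (exact permutation test, two-sided, regions permuted within each preparation, p = 0.017). The ratio to miR-100-5p was 5.67, 5.55 and 5.68 in the caput and 2.44, 2.02 and 2.17 in the cauda of whole tissue, and 5.03 and 3.95 against 1.92 and 2.35 in epithelial cells. Its log2 change was -1.21 (exact permutation p = 0.017). The ratio of miR-125a-5p to miR-125b-5p was 0.957, 1.34 and 1.17 in the caput and 0.402, 0.412 and 0.430 in the cauda of whole tissue. In epithelial cells it was 0.356 and 0.269 against 0.171 and 0.257, and the log2 change over both was -1.01 (exact permutation p = 0.017). In all 3 ratios the caput and cauda libraries did not overlap in either preparation. Since 0.017 is the smallest p that the 120 arrangements allow, the test ranks none of these ratios above another. With whole tissue alone the smallest p possible is 0.10 and with epithelial cells alone 0.33. With same-numbered libraries taken as pairs, the exact p of each of these 3 ratios was 0.0625.

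Over the 9 ratios tested, these 3 and the ratio of miR-99a-5p to miR-100-5p had a Benjamini-Hochberg adjusted p of 0.038. The last ratio, between the paralogs themselves, was 0.375, 0.274 and 0.265 in the caput and 0.549, 0.437 and 0.495 in the cauda of whole tissue, and 0.297 and 0.251 against 0.359 and 0.445 in epithelial cells. Its log2 change was 0.63 (exact permutation p = 0.017). The counts assigned to these paralogs thus also differed in their course along the duct. How reads that match both were assigned is not stated, so this ratio carries the uncertainty of their split.

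Within the chromosome 17 locus no ratio passed the test. The test averages the changes of both preparations, so changes of opposite sign cancel. A ratio that did not pass therefore does not show that its products moved together. The ratio of miR-99b-5p to miR-125a-5p changed by -0.34 on the log2 scale from caput to cauda (exact permutation p = 0.083, adjusted p = 0.13), by -0.34 in whole tissue and -0.33 in epithelial cells. The ratio of miR-99b-5p to let-7e-5p changed by -0.82 in whole tissue and by 0.45 in epithelial cells, with no overlap between caput and cauda in either (exact permutation p over both = 0.47, adjusted p = 0.47). It was 14.7, 12.2 and 18.8 in the caput and 8.24, 7.11 and 10.6 in the cauda of whole tissue, and 11.8 and 11.6 against 16.4 and 15.5 in epithelial cells. The direction thus differed between the preparations, and this difference was not tested. The 5p to 3p ratios were 690 to 897 in the caput and 616 to 1092 in the cauda of whole tissue for miR-99b, 103 to 151 and 142 to 215 for miR-125a, and 50.0 to 70.3 and 38.4 to 120 for let-7e. The exact permutation p of these arm ratios over both preparations were 0.28, 0.050 and 0.45, with adjusted p of 0.36, 0.090 and 0.47. In epithelial cells the ratios were 339 to 361 in the caput and 424 to 590 in the cauda for miR-99b, 109 to 210 and 218 to 254 for miR-125a, and 147 to 168 and 60.2 to 93.8 for let-7e, with no overlap. The let-7e ratio changed by 0.42 on the log2 scale in whole tissue but by -1.06 in epithelial cells, and this difference was not tested. The 3p counts behind these epithelial values were 5 to 20 for miR-99b-3p, 1 to 4 for miR-125a-3p and 2 to 3 for let-7e-3p, so their counting error is large.

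Epithelial cells were last set against whole tissue within each region. The preparations were tabled separately, so a technical difference between the tables and one between the preparations cannot be told apart. CPM in the comparisons between preparations use TMM factors over both tables. On this scale the epithelial markers were higher in epithelial cells in each region, with 29518 to 32808 against 21686 to 24094 CPM in the caput, 38228 to 44720 against 18050 to 18415 in the corpus and 36359 to 44151 against 9946 to 11733 in the cauda. The smooth muscle markers were higher in epithelial cells as well in the caput (148130 to 244856 against 54502 to 63490 CPM) and in the corpus (208869 to 231092 against 78962 to 81031 CPM). In the cauda they overlapped, at 168866 to 361558 and 269799 to 288892 CPM. In mean sums the smooth muscle markers were thus 3.34-fold higher in the epithelial caput and 2.75-fold higher in the epithelial corpus, where the epithelial markers were 1.37-fold and 2.27-fold higher. Fibroblast markers were 1.59-, 1.15- and 1.33-fold higher in epithelial cells in caput, corpus and cauda, with overlap in the cauda, and the endothelial pair was 2.14-fold and 2.78-fold higher in caput and cauda and 1.03-fold lower in the corpus. Leukocyte markers were lower in epithelial cells in each region, by 1.45-, 2.13- and 1.46-fold. Germ cell markers overlapped in the caput and were 1.77-fold and 2.88-fold lower in corpus and cauda, and red blood cell markers, of which 4 of 5 were in the epithelial table, were 3.04-fold higher in the caput and overlapped in the other regions. The part of these markers in the differences below was not tested.

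miR-125a-5p was lower in epithelial cells in the caput, at 2344 and 1979 CPM against 4090, 5095 and 5837 in whole tissue. The log2 difference was -1.20 ± 0.16 (limma adjusted p = 1.4e-05). It was also lower in the corpus, at 1374 and 1011 against 3687 and 3436 CPM (log2 -1.57 ± 0.22, limma adjusted p = 4.2e-05). In the cauda it was at 1519 and 1662 against 1968, 2275 and 2405 CPM, a log2 difference of -0.48 ± 0.18 (limma adjusted p = 0.030) under the 2-fold limit. Its neighbour miR-99b-5p had positive differences in the same regions, 0.29 ± 0.17 (limma adjusted p = 0.15), 0.61 ± 0.19 (0.018) and 1.03 ± 0.18 (0.00011), of which the last was called. Without 1 library the caput value ranged from -0.09 to 0.32 and was below 0 without epithelial cauda replicate 2, and the corpus value ranged from 0.31 to 0.73 (adjusted p up to 0.31). In the cauda miR-99b-5p was at 15329 and 11888 CPM in epithelial cells and 6898, 6027 and 7026 in whole tissue. The ratio of miR-99b-5p to miR-125a-5p was 2.65 to 4.23 in the 8 whole tissue libraries and 7.14 to 17.1 in the 6 epithelial libraries.

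In the caput, 2 of 6 members were called between the preparations (35.1% of 194 miRNAs were called), miR-125a-5p lower and miR-99b-3p higher (log2 1.49 ± 0.40, limma adjusted p = 0.0044). In the corpus miR-125a-5p alone was called (27.3% of all). In the cauda 3 were called, all higher in epithelial cells (40.2% of all, with calls higher at 22.7%). These were miR-99b-5p, miR-99b-3p (log2 1.70 ± 0.53, limma adjusted p = 0.011) and miR-100-5p (log2 1.08 ± 0.20, limma adjusted p = 0.00023). The call of miR-99b-3p was lost in the caput without epithelial caput replicate 1 (adjusted p = 0.071) and in the cauda without epithelial cauda replicate 2 (0.061). In the corpus the log2 difference of miR-99b-3p was 1.37 ± 0.58 with all libraries (limma adjusted p = 0.063). It was 1.86 without whole tissue corpus replicate 2 and 2.34 without epithelial corpus replicate 2. Each of these fits leaves 1 library in a compared group. The cauda differences of miR-99b-5p and miR-100-5p went below 2-fold without epithelial cauda replicate 1 (log2 0.89 and 0.80) and without whole tissue caput replicate 2 (0.86 and 0.91), and that of miR-99b-5p also without whole tissue corpus replicate 2 (0.99) and with DESeq2 size factors (0.99). miR-99a-5p had log2 differences of 0.48, 0.63 and 0.78 in caput, corpus and cauda (limma adjusted p = 0.041, 0.032 and 0.0018), and miR-125b-5p of 0.68, 0.49 and 0.52 (0.00088, 0.025 and 0.0067), all under 2-fold. These values depended on the scaling over both tables. Without 1 library the median over all miRNAs tested went from 0.10 to between -0.28 and 0.13 in the caput, from 0.11 to between -0.12 and 0.11 in the corpus and from 0.10 to between -0.07 and 0.25 in the cauda. Over the same fits the difference of miR-99a-5p ranged from 0.10 to 0.56, 0.38 to 0.74 and 0.61 to 0.96 in the 3 regions, and its adjusted p reached 0.65, 0.26 and 0.029. That of miR-125b-5p ranged from 0.30 to 0.71, 0.24 to 0.53 and 0.33 to 0.75, and its adjusted p reached 0.048, 0.18 and 0.051. The lowest caput values of both, 0.10 and 0.30, came without epithelial cauda replicate 2. The difference of miR-125a-5p remained called in these fits, from -1.58 to -1.17 in the caput and from -1.98 to -1.37 in the corpus.

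The arms of the miR-125b hairpins went apart between the preparations. While miR-125b-5p had positive differences, miR-125b-1-3p was called lower in epithelial cells in all 3 regions, with log2 differences of -2.18 ± 0.33, -1.15 ± 0.43 and -3.19 ± 0.42 in caput, corpus and cauda (limma adjusted p = 4.4e-05, 0.039 and 9.4e-06). miR-125b-2-3p was called lower as well, by -1.35 ± 0.24, -1.03 ± 0.31 and -2.05 ± 0.28 (0.00019, 0.014 and 1.4e-05). In counts, miR-125b-1-3p had 433, 407 and 453 in the caput of whole tissue and 14 and 19 in the caput of epithelial cells, whose libraries were smaller. The corresponding counts of miR-125b-5p were 6908, 5838 and 8294 against 2064 and 1827. In epithelial corpus and cauda, miR-125b-1-3p had only 3 to 10 and 4 to 7 counts. There miR-125b-2-3p had 5 to 12 counts in the corpus and 11 in each cauda library. For the other products this comparison was not run under other settings or without 1 library, so how far these calls depend on the scaling was not tested.

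**Figure D5:**
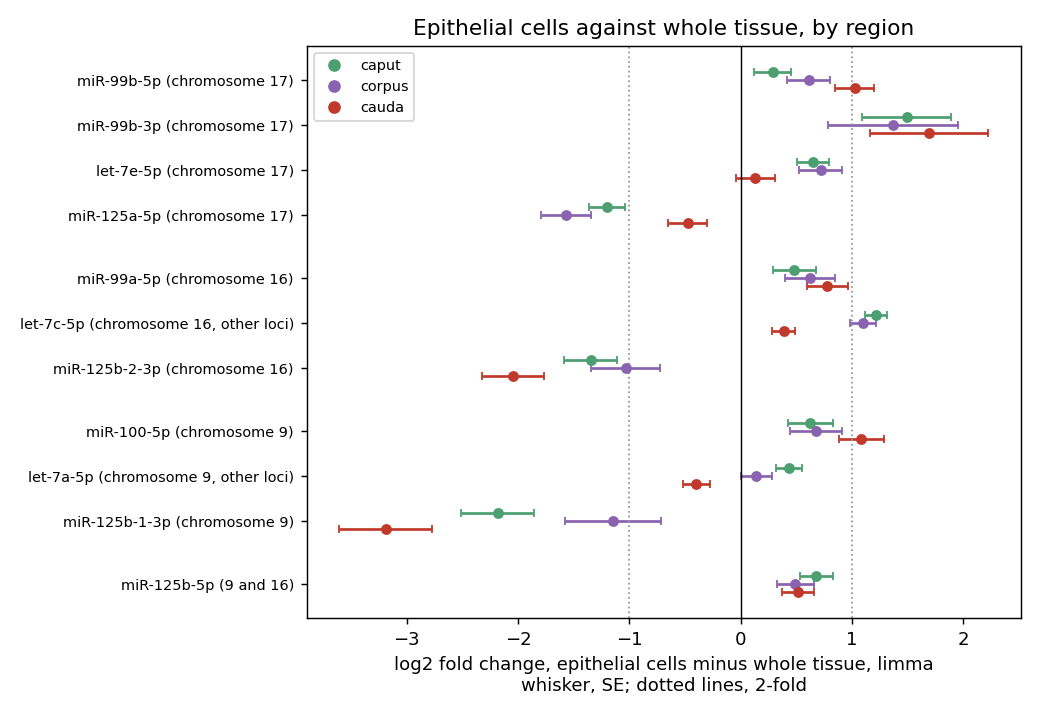
Log2 fold change of epithelial cells minus whole tissue (limma, with SE) in caput, corpus and cauda, for the members and other products tested in both preparations, with 2-fold limits dotted. miR-125a-5p and the 3p products of miR-125b lie below 0 in all 3 regions, and the other members lie above 0.

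The miRNAs outside these loci whose log2 CPM ran most closely with the 5p members were listed over the 8 whole tissue libraries, among 178 candidates with a mean count above 100. The points share regions and scaling, so the correlations describe the regional pattern and carry no test. For miR-99b-5p they were miR-29a-3p, miR-672-5p and miR-182-5p (Pearson r = 0.99 each). For miR-125a-5p they were miR-1843a-5p, miR-423-5p and miR-182-5p (r = 0.99 each), and r between miR-99b-5p and miR-125a-5p was 0.97. Over the 6 epithelial libraries r with miR-99b-5p was 0.71, 0.74 and 0.79 for its 3 miRNAs. With miR-125a-5p it was 0.05 for miR-423-5p and 0.58 for miR-182-5p. For miR-100-5p the closest in whole tissue were miR-194-5p, miR-29c-3p and miR-149-5p (r = 0.88, 0.87 and 0.87). For miR-99a-5p they were miR-30a-5p, miR-184-3p and miR-199a-5p (r = 0.85, 0.83 and 0.81), and for miR-125b-5p miR-150-5p, miR-1a-3p and miR-199a-5p (r = 0.69, 0.63 and 0.59). The r values are not set against each other, since the members differ in the size of their regional change, for example -1.74 for miR-99b-5p and 0.06 for miR-125b-5p (log2, caput to cauda of whole tissue). miR-99b-5p and miR-125b-5p had r = -0.21. Over the 6 epithelial libraries miR-99a-5p and miR-30a-5p had r = 0.98, while miR-184-3p and miR-199a-5p had 0.53 and -0.33 with miR-99a-5p. For the partners of miR-100-5p these were 0.22, -0.27 and 0.30, and for those of miR-125b-5p 0.60, 0.20 and 0.16.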

How the data were processed

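Per the submitters' processing notes, CASAVA 1.8.2, Bowtie 1.1.1 and limma were used. The paper's methods name mm10 and miRBase. How reads matching several miRNAs were divided is not given in the sources used here. For both preparations the values deposited by the authors are unnormalized expected counts of each mature miRNA, with 0.001 added throughout for epithelial cells. This constant was removed and counts were rounded for the tests. TMM factors (edgeR 4.0.16) came from miRNAs with a mean count above 10 in a group. limma-voom (limma 3.58.1, R 4.3.3) was fitted once per preparation and once over the names in both tables, without a replicate block. Ratios used counts plus 0.5, and likeness used log2 CPM plus 1. Only the limma fit of caput against cauda within each preparation was tried on simulated counts. The joint fit and the ratio tests were not. Alternatives were edgeR's quasi-likelihood test, DESeq2 1.42.0, other scalings and filters, a replicate block and leaving out each library. Named were the 8 members, the 9 other products of their loci and the 3 miRNAs most like each 5p member. The members, loci and marker lists were chosen with earlier results of these data known. Deviations of same-numbered libraries from their group means correlated between -0.09 and 0.21, and the numbers were not taken as pairs. These correlations cannot decide whether the libraries were paired, since in a region with 2 libraries the deviations mirror each other. The corpus libraries of whole tissue have column numbers that leave a gap after those of the caput. The block and these correlations, which used the titles, may therefore join them to the wrong libraries.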

Additional observations from a re-analysis of the deposited data

Results flagged for a closer look

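The change from caput to cauda differed between the preparations for 3 of the named miRNAs at a limma adjusted p below 0.05. The log2 change in epithelial cells minus that in whole tissue was 0.74 for miR-99b-5p, whose changes in the separate fits were -0.69 and -1.74. It was -0.83 for let-7c-5p and -0.83 for let-7a-5p. Their changes in the separate fits were -0.78 and 0.13 in whole tissue and -1.30 and -0.39 in epithelial cells. No group held more than 3 libraries, so single libraries were not screened for outlying values.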

How the results depend on the processing

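For single members 420 of 440 values under other settings and 577 of 630 without 1 library kept their direction and their side of the threshold. All 29 reversals were of values that had not been called, and the cause was not tested. From corpus to cauda of whole tissue, let-7e-3p became 0.069 by edgeR's quasi-likelihood test, 0.00045 with DESeq2 size factors and 0.11 by the DESeq2 Wald test, miR-125b-5p 0.015 with DESeq2 size factors and 0.021 by the Wald test, and miR-100-5p 0.0032 by the Wald test, all log2. With library totals miR-99b-5p and miR-100-5p became 0.013 and 0.021 from caput to corpus of epithelial cells, and miR-125b-5p became 0.037 in the difference between preparations. Without 1 library, the log2 values that reversed ranged from -0.43 to 0.20 (let-7e-3p), -0.081 to 0.033 (miR-125b-5p) and -0.11 to 0.011 (miR-100-5p) from corpus to cauda of whole tissue, from -0.36 to 0.082 (miR-99b-5p), -1.93 to 0.27 (miR-99b-3p) and -0.27 to 0.0075 (miR-100-5p) from caput to corpus and -0.069 to 0.35 (miR-125b-5p) from corpus to cauda of epithelial cells, from -0.23 to 0.46 in the difference between preparations (miR-125b-5p), with an adjusted p of 0.042 without epithelial cauda replicate 2 (the fold was not limited in this comparison), and from -0.093 to 0.32 between the preparations in the caput (miR-99b-5p).

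Of the members called, library totals and the DESeq2 Wald test left 1 from caput to corpus of whole tissue, without let-7e-3p. Restricting the test to miRNAs that reached 10 counts in each library left 1 from caput to corpus and 3 from caput to cauda, since fewer miRNAs were then tested. Library totals gave 1 from caput to cauda of epithelial cells. The number of members whose change differed between preparations was 2 by edgeR's test, 3 with library totals, 2 with DESeq2 size factors and 0 when every miRNA with at least 1 count was tested. With the replicate block it was 2, miR-99b-5p and miR-125a-5p (adjusted p = 0.038 for the latter), and the block changed no other count of members called by over 1.5 times. Without 1 library it was 0 to 5. The other counts without 1 library were 1 to 2 (caput to corpus), 1 to 2 (corpus to cauda) and 5 to 5 (caput to cauda) in whole tissue, 0 to 1 from caput to cauda of epithelial cells and 0 to 0 between the other regions, and 1 to 2, 1 to 2 and 1 to 3 between the preparations in caput, corpus and cauda. The split of higher and lower calls over all miRNAs was 47 and 53 from caput to corpus of whole tissue (76 and 35 with library totals), 13 and 12 from caput to corpus and 30 and 26 from caput to cauda of epithelial cells (18 and 9, and 39 and 19), 15 and 17 between the changes of the preparations (30 and 15) and 29 and 24 and 44 and 34 between the preparations in corpus and cauda (25 and 30, and 55 and 28).

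The ratio of miR-99b-5p to miR-99a-5p changed by -2.06 in whole tissue alone and -1.62 in epithelial cells alone, that to miR-100-5p by -1.35 and -1.07, and that of miR-125a-5p to miR-125b-5p by -1.46 and -0.56, designs too small to reach p below 0.05. With differences within same-numbered pairs (replicate block) the changes were -1.84, -1.21 and -1.01, with an exact p of 0.0625 each, the smallest the pairs allow. Without 1 library they ranged from -1.92 to -1.79, -1.30 to -1.12 and -1.16 to -0.86. Depth limits miR-125a-3p, miR-99b-3p and let-7e-3p, which had at most 20 counts in any epithelial library.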
